A study of Spirodela polyrhiza with 4 samples.

Results

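Chromosome 10 of *S. polyrhiza* line 9509 carried 410 of the 5726 broad H3K9me2 peaks in the list, and these 410 peaks are described here. The chromosome was chosen by its measured coverage, since peaks occupied 13.3% of it up to its last peak, more than of any of the other 19 chromosomes. The nearest below were chromosome 15 with 12.9% and chromosome 17 with 12.04%, and the lowest was chromosome 4 with 7.54%. These values chose the chromosome, so they are given as a description, and no value below was tested. The peaks come from 1 ChIP-seq library of whole plantlets of line 9509, a clonally grown greater duckweed, made with an antibody against H3K9me2 from crosslinked and sonicated chromatin. There is no replicate library and no treatment, all plants share 1 line and 1 growth condition, and every cell type of the plantlet is pooled. The input library of the same line and the DNA methylation libraries of this and a second line were not analysed here. The peak list gives no read counts, so the depth behind each peak is unknown and no error can be given for it. Chromosomes stand side by side below as parts of 1 library and are not replicates.

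H3K9me2 is the dimethylated form of a lysine in the tail of histone H3, and in plants it marks silenced chromatin. In *A. thaliana* it works in a loop with DNA methylation, in which the chromomethylase CMT3 binds the mark and methylates nearby CHG sites, and histone methyltransferases such as KRYPTONITE bind methylated DNA and write the mark. The mark typically lies over transposons and other repeats, and in many flowering plants it is concentrated around the centromere and thinner along the arms. Long peaks of a broad peak caller are stretches where the signal stayed above background with few breaks, whereas short peaks are smaller patches, alone or close to other peaks. No genome sequence or annotation was used here, so the genes, repeats and centromere of chromosome 10 were not placed against its peaks.

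H3K9me2 formed 1 broad, dense region in the inner part of chromosome 10, with smaller dense patches around it and a thinly covered right end. Coverage was measured in 159 windows of 50 kb, and positions are those of the peak list, counted from 1. By 1-Mb section, it was 8.37% in the first Mb, 5.83% in the second and 17.9% in the third. It reached 40.1% in the fourth Mb, from 3000001 to 4000000. It was 10.7%, 14.1% and 5.53% in the next sections, and 3.05% in the remaining 958.5 kb up to the last peak. The fourth Mb thus held 120 of the 410 peaks and 38.0% of the covered sequence, against 13 peaks and 2.77% in the last section. Median peak length was 1796 bp in the fourth Mb and 737 bp in the last section. The number of peaks of at least 5000 bp was 28 in the fourth Mb and 13 in the third, and it was 7 or fewer in each of the other 6 sections.

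**Figure D1:**
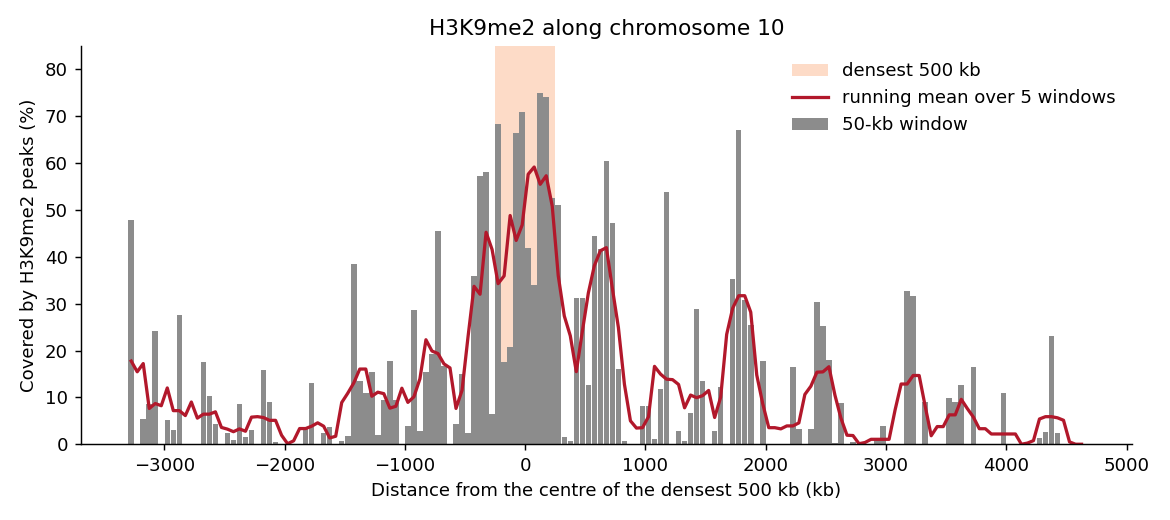
Percent of each 50-kb window of chromosome 10 covered by H3K9me2 peaks (bars) and the running mean over 5 windows (line), by distance in kb from the centre of the densest 500 kb (shaded). The running mean peaks at 59.2% just right of the centre, and a separate rise follows at about 650 kb.

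The densest 500 kb of the chromosome, the run of 10 windows with the highest coverage, lay from 3050001 to 3550000. Its centre was at 41.5% of the distance from the start to the last peak, and 13 of the other 19 chromosomes also had the centre of their densest 500 kb between 20 and 80% of their length. Peaks occupied 52.1% of it, against a median of 37.4% for the densest 500 kb of the other 19 chromosomes (SD 7.84, range 21.0 to 48.5%). The longest peak of the list, 44827 bp, is part of this coverage, and the value without it is given below. The stretch held 76 peaks, number 4 of the 20 chromosomes. Its share of the covered sequence of its own chromosome, 24.7%, was nevertheless among the lower ones, 16th of 20, and coverage outside it is given below. A stretch of 500 kb is 6.28% of chromosome 10 and more of shorter chromosomes, so this ranking compares unequal shares of length. On chromosome 12 the densest stretch held 44.1%.

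Coverage within this stretch was uneven. Of its 10 windows, 6 were at least 50% covered, and the highest were those from 3400001 with 74.97% and from 3450001 with 74.0%. The windows from 3250001, 3050001 and 3200001 reached 70.9%, 68.4% and 66.4%. The window from 3500001 reached 52.5%. Those from 3300001 and 3350001 had 41.8% and 34.0%, and the lowest were 17.5% from 3100001 and 20.8% from 3150001. The low pair of windows contains the longest peak-free gap of the stretch, 52396 bp from 3118901 to 3171296. A second gap, of 38262 bp from 3334709 to 3372970, lies at the other dip. Dense blocks of 50 to 150 kb thus alternated with less covered windows inside the densest stretch.

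The domain around the maximum of the running mean over 5 windows was bounded where that mean dropped below 33.7%, the value midway from its median to its maximum. It ran from 2950001 to 3600000. Its length was 650 kb, against a median of 350 kb on the other chromosomes (SD 131), and only chromosome 3 had a longer one, with 700 kb. This length depended on the settings, since it was 350 kb with a running mean over 3 windows and between 450 and 500 kb under 5 other alternatives. Its coverage of 49.0% was 6th of 20, below 64.5% on chromosome 13. The domain held 91 peaks, among them 21 of at least 5000 bp, and 2 gaps of at least 50 kb. It had no window without a peak.

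The edges of the domain differed in shape. On the right, coverage was 50.9% in the last window of the domain, from 3550001, and 1.60% and 0.628% in the next pair of windows, which held 2 peaks of 314 and 801 bp in all. On the left, coverage fell off in steps. It was 58.1% in the first window of the domain and still 57.2% and 35.99% in the windows from 2900001 and 2850001, which lie outside it, then 2.31% from 2800001. Dense windows thus began 100 kb to the left of the domain as bounded here. A window of 6.50%, from 3000001, with a gap of 50683 bp from 3007183 to 3057865, separates this left block from the rest of the domain.

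Dense sequence resumed beyond the right edge. The second densest 500 kb that does not overlap the first was the adjoining stretch from 3550001 to 4050000, 32.2% covered. This was higher than the second densest stretch of any other chromosome (median 20.5%, SD 5.24, highest 30.1% on chromosome 11). It shares its first window with the domain, and beyond the nearly empty windows its coverage was 31.3%, 31.2%, 12.6%, 44.4%, 41.7%, 60.4% and 47.2%. It held 50 peaks with a median fold enrichment of 2.51, against 2.38 in the densest stretch. Fold enrichment is the ratio of the signal of a peak to the background that the peak caller MACS2 estimated. The quartiles of these stretches overlapped, with 1.84 to 2.79 in the second densest and 1.96 to 3.20 in the densest.

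The flanks of the densest 500 kb were also more covered than those on most other chromosomes. The 250 kb to its left were 32.0% covered, the highest of the 19 chromosomes on which such a flank fits (median of the others 14.4%, SD 6.62), and the following 250 kb 16.3%, 6th of 19. The 250 kb to its right were 23.1% covered, 3rd of 16, and the following 250 kb 41.3%, the highest of 16 (median of the others 11.1%, SD 7.63). From 500 to 1000 kb away the values were 10.8% on the left and 10.0% on the right, against medians of 9.61 and 8.35% on the other chromosomes. In the next 500 kb outwards they were 8.69% on the left and 10.3% on the right, against medians of 6.32 and 10.4%. The excess of chromosome 10 over the other chromosomes was thus largest within 500 kb of the densest stretch.

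**Figure D2:**
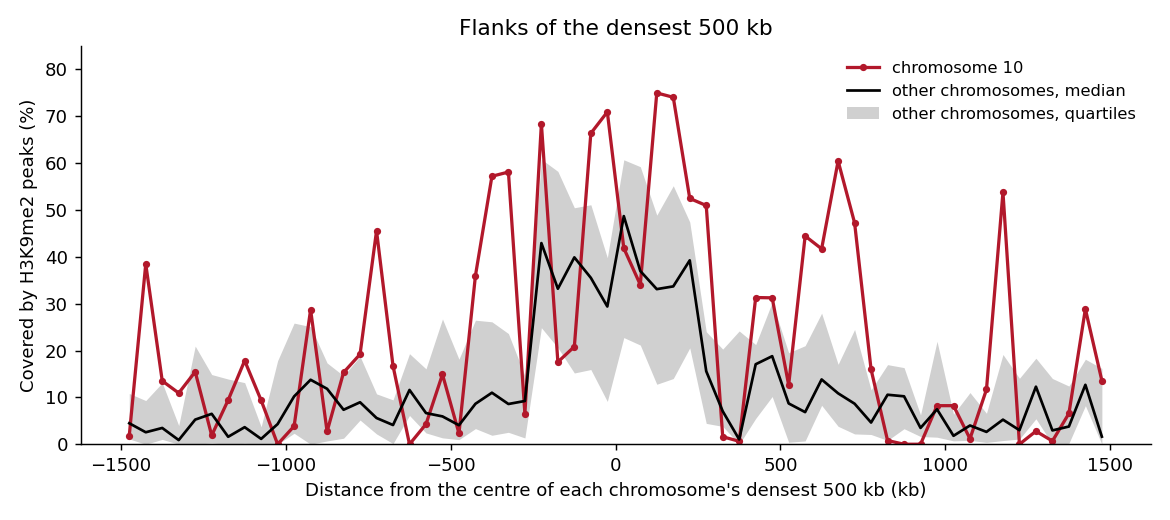
Percent of each 50-kb window covered by H3K9me2 peaks on chromosome 10 (red) and on the other chromosomes that reach that far (black line, median; grey band, quartiles), aligned at the centre of each chromosome's densest 500 kb, in kb. Chromosome 10 lies above the quartile band at 57.2 and 58.1% in the left flank and again at 41.7 to 60.4% in the right flank.

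Chromosome 10 also had the highest coverage of 20 over longer stretches. The densest 1 Mb of chromosome 10, from 3050001 to 4050000, was 42.2% covered, against 38.8% on chromosome 3, the next highest, and a median of 27.9% on the other 19. This 1 Mb contains the longest peak of the list, 44827 bp. Without that peak it would be less covered than the densest 1 Mb of chromosome 3 with all its peaks. The densest 2 Mb, from 2100001 to 4100000, was 30.2% covered, against 24.5% on chromosome 3 and a median of 20.01%. These 2 Mb make up 25.1% of the chromosome and held 203 of its peaks, 57.2% of its covered sequence and 42 of its 65 peaks of at least 5000 bp.

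Outside the densest 500 kb, chromosome 10 was 10.7% covered, equal to chromosome 15 at this precision, against a median of 7.76% on the other 19 (SD 1.40). With the densest 1 Mb of each chromosome taken out it was 3rd with 9.11%, behind chromosomes 17 and 15 with 9.81% and 9.14%. With the densest 2 Mb taken out it was 4th with 7.58%, behind chromosomes 19, 15 and 17 with 9.87%, 9.83% and 7.82%. These 2 Mb are 50.6% of chromosome 19 and 25.1% of chromosome 10, so this comparison takes unequal shares. In each case chromosome 10 was above the median of the others, and only with the densest 2 Mb taken out was it below 3 shorter chromosomes.

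The sequence right of the domain, 4358.5 kb, was 10.2% covered with 197 peaks, and the sequence left of it, 2950.0 kb, was 9.91% covered with 122 peaks. Median fold enrichment was 2.07 on both sides, and median length 1003 bp right and 1155 bp left. Beyond these averages, coverage was patchy. At least 50% was covered in 12 windows, of which 8 were in the domain and 1 beside its left edge. The others were the windows from 3950001 with 60.4%, from 4450001 with 53.8% and from 5050001 with 67.0%. The last of these had dense neighbors, with 35.2% before it and 30.8% and 25.4% after it, and so formed a patch of 200 kb right of the domain. The window from 4450001 stood nearly alone, between 11.7% and a window without a peak.

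Chromosome 10 had more strongly covered windows than most chromosomes but a similar share of empty ones. Windows at least 50% covered made up 7.55% of its windows, against 3.28% of the 2591 windows of the other 19 chromosomes, and chromosome 13 had a higher share with 7.94%. Windows at least 20% covered made up 22.6% against 16.2%. Windows without a peak made up 32.1%, or 51 windows, against 38.0% on the other chromosomes pooled, and 5 of the others had a lower share. The median window was 3.62% covered, against 2.54%. Runs of at least 4 empty windows began at 1250001, 5300001, 7050001, 7300001 and 7750001, so 3 of 5 were in the last Mb.

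More peaks per Mb and longer peaks both went into the coverage of chromosome 10. It had 51.5 peaks per Mb, against 40.9 over the other 19 chromosomes pooled, a ratio of 1.26. Its mean peak length was 2574 bp, against 2352 bp, a ratio of 1.09, and the product of both is the ratio of 1.38 in percent covered (13.3 against 9.62%). Chromosome 15, next in coverage, had 64.1 peaks per Mb with a mean length of 2014 bp. Chromosomes 17 and 18 also had more peaks per Mb than chromosome 10, with 56.8 and 52.0, with mean lengths of 2120 and 1838 bp. The mean length of chromosome 10 was the highest of 20, just above 2563 bp on chromosome 16. This first place rests on 1 peak of 44827 bp, the longest of the list, without which the mean would be below that of chromosome 16. The median length of chromosome 10, 1179 bp, was only 13th of 20, so its mean was high while its median was not.

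**Figure D3:**
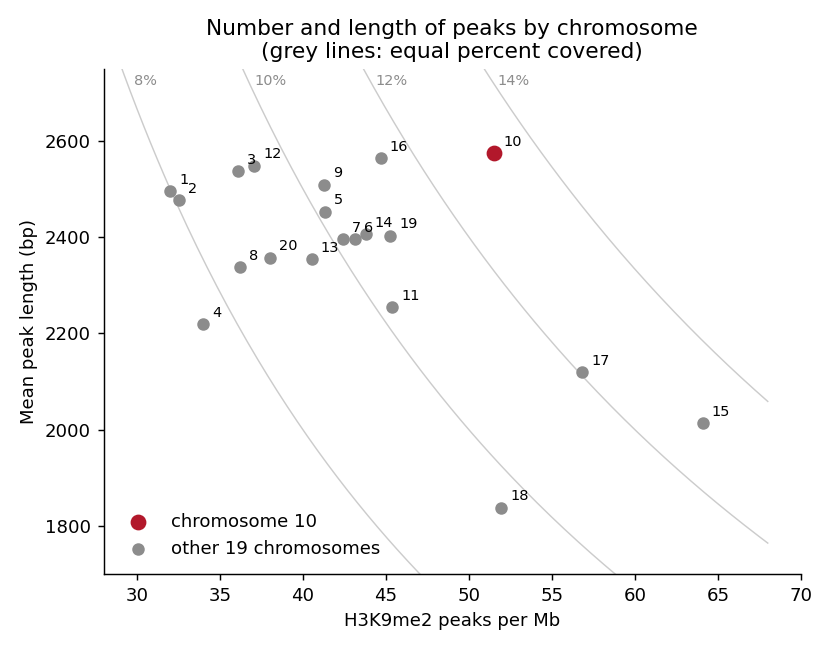
H3K9me2 peaks per Mb (horizontal) against mean peak length in bp (vertical), 1 numbered point for each chromosome. Grey lines join points of equal percent covered (8, 10, 12 and 14%). Chromosome 10 (red), with 51.5 peaks per Mb of 2574 bp, lies beyond the 12% line, as chromosomes 15 and 17 do with more but shorter peaks.

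Long peaks accounted for most of the difference. Peaks of at least 5000 bp numbered 65 on chromosome 10, or 8.17 per Mb, the highest density of 20 chromosomes (median of the others 5.19, SD 0.911). Those of at least 5000 and under 10000 bp covered 4.35% of chromosome 10, against 2.79% of the other 19 pooled, and those of at least 10000 bp covered 2.68% against 1.59%. These classes add 1.56 and 1.09 percentage points to the total difference of 3.64 points. The longer class holds only 14 peaks on chromosome 10, among them the longest of the list, 44827 bp. Without that peak the coverage of the chromosome fell from 13.3 to 12.7%, so much of the 1.09 points is 1 peak. Peaks of at least 1000 and under 5000 bp, which covered 4.93% against 4.24%, add 0.69 points, and peaks under 1000 bp, with 1.30% against 1.00%, add 0.301 points. Every length class was therefore denser on chromosome 10 than on the other 19 pooled, and the excess in number per Mb was 1.57 times in the class from 5000 bp but 1.13 times in the class from 1000 bp. Chromosome 14 had a little more of its sequence, 2.73%, under peaks of at least 10000 bp.

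**Figure D4:**
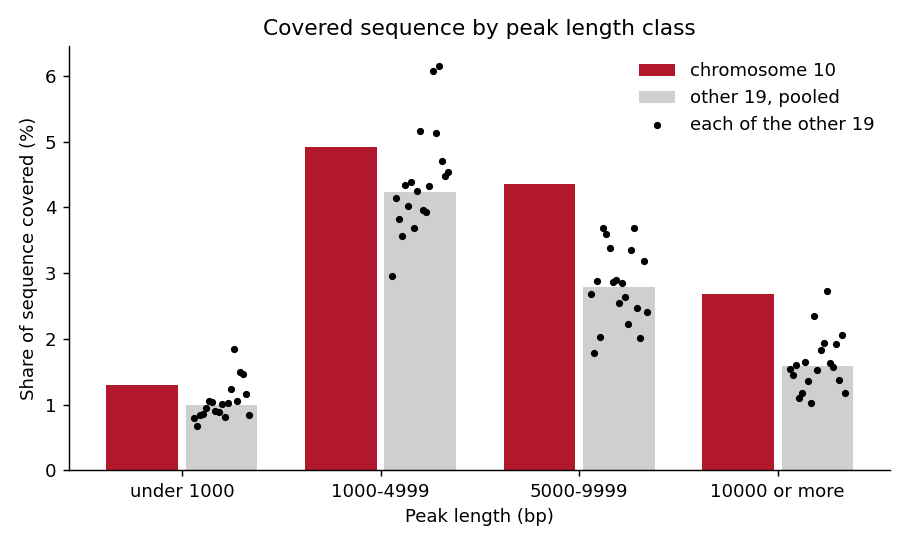
Percent of the sequence covered by H3K9me2 peaks of 4 length classes (bp), on chromosome 10 (red bars) and on the other 19 chromosomes pooled (grey bars), with each of the 19 as a point. In the class from 5000 bp, the 4.35% of chromosome 10 is above all 19 points.

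The long peaks also lay close to each other. On chromosome 10, 51 of the 65 peaks of at least 5000 bp (78.5%) had another such peak within 50 kb, against a median of 59.4% on the other 19 chromosomes (SD 11.6). Chromosome 6 had a slightly higher share, 79.2%. Inside the densest 2 Mb there were 21.0 such peaks per Mb, against a median of 11.0 in the densest 2 Mb of the other chromosomes and a highest value of 15.5 on chromosome 7. Outside it there were 3.86 per Mb, 3rd of 20. Coverage chose both the chromosome and these 2 Mb, and long peaks raise coverage, so the choice favours a high number there. Chromosome 10 also had more long peaks per Mb in all (8.17 against a median of 5.19), which by itself makes a neighbor within 50 kb more likely. Of the 65 long peaks, 46 (70.8%) had a neighboring peak of any length less than 1000 bp away, and so did 102 (54.8%) of the 186 peaks under 1000 bp. Over all 410 peaks, 58.5% had a neighbor no more than 1000 bp away, against a median of 55.3% on the other chromosomes. The share of the short peaks was thus not above that of all peaks. The counts by length are for chromosome 10 only.

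The longest peak of the chromosome, and of the whole list, ran from 3416240 to 3461066 inside the densest stretch. It was 44827 bp long with a fold enrichment of 5.47, 10th of 5726 peaks. A peak of 1902 bp preceded it at a distance of 1360 bp, and one of 4907 bp followed it after 1741 bp, with fold enrichments of 2.53 and 3.29. Without this peak chromosome 10 was 12.7% covered, below the 12.9% of chromosome 15 with all its peaks. With the longest peak of every chromosome left out, chromosome 10 ranked first, with 12.7% against 12.6% on chromosome 15. The densest 500 kb then moved to the stretch from 2850001 to 3350000 and was 44.4% covered. Both the first place against the full chromosome 15 and the exact place of the densest stretch thus depended on this peak. So did the first place of that stretch, since 44.4% is below the 48.5% of chromosome 3 with all its peaks.

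The second longest peak was the first of the chromosome, 20359 bp from 4552 to 24910. Its fold enrichment of 5.66 was the highest of the 410. The third, 14477 bp from 4469560 to 4484036 (fold enrichment 4.28), made up much of the nearly isolated dense window right of the domain. Of the next 7 by length, those from 3224536 to 3238259, from 3269601 to 3283214, from 2985595 to 2999022 and from 3077746 to 3089336 lay in the domain. They were 13724, 13614, 13428 and 11591 bp long, with fold enrichments of 3.44, 3.46, 3.25 and 3.11. The peak of 13192 bp from 3727732 to 3740923 (3.08) lay in the adjoining dense stretch. The other 2 of the 10 longest were 13567 bp from 1873422 to 1886988 (3.15), left of the domain, and 11518 bp from 4731619 to 4743136 (3.28), right of the adjoining dense stretch. In all, 6 of the 10 longest peaks were thus in the domain or the adjoining dense stretch, while the second and the third were far from it. Of all 410 peaks, 91 lay in the domain and 50 in the adjoining stretch, which share a window. Coverage defined both, and long peaks raise coverage, so the choice favours long peaks there.

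The domain held 91 of the 410 peaks, 8.17% of the length and 30.2% of the covered sequence. Whether its share of strong peaks was above its share of all peaks depended on the limit. Of the 9 peaks with a fold enrichment of at least 4, 2 lay in the domain, about its share of all peaks. They were the longest peak and one of 6097 bp from 3070966 to 3077062 with 5.28. The first peak of the chromosome was another, and the other 6 lay right of 4050000. They included 5274 bp from 5765353 to 5770626 (4.41), 6075 bp from 6516954 to 6523028 (4.37) and 3320 bp from 5024278 to 5027597 (4.31). With a limit of 3 instead of 4, 28 of 71 such peaks lay in the domain, as did 21 of the 65 peaks of at least 5000 bp. Both shares were above its share of all peaks, but coverage defined the domain and long peaks raise coverage. The number of 71 was the highest of 20 chromosomes (median of the others 42), while 9 was 4th. Chromosome 10 also had the most peaks of all, 410. As a share of peaks, those of at least 3-fold were more frequent on chromosomes 2 (50 of 266) and 13 (46 of 256).

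Peaks inside the densest 500 kb were longer than those outside it. Median length was 1987 bp for the 76 peaks inside, with quartiles of 619 and 4443 bp, against 1111 bp (542 and 3232 bp) for the 334 outside. Median fold enrichment was 2.38 inside (quartiles 1.96 and 3.20) and 2.08 outside (1.81 and 2.62). On the other 19 chromosomes pooled, the same measures were 1695 bp inside and 1123 bp outside, and 2.26 inside and 2.03 outside. Peaks of at least 5000 bp made up 21.1% of the peaks inside and 14.7% outside, against 17.2% inside and 11.6% outside on the other chromosomes. Long peaks raise coverage and coverage defined the stretches, so the choice itself favours these differences. The quartiles overlap widely, and short peaks were common in the densest stretch as well, where 28 of 76 were under 1000 bp.

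Fold enrichment increased with length on chromosome 10. The median was 1.83 for the 186 peaks under 1000 bp and 2.45 for the 159 from 1000 to under 5000 bp. It was 3.02 for the 51 from 5000 to under 10000 bp and 3.36 for the 14 of at least 10000 bp. The same classes on the other 19 chromosomes had medians of 1.81, 2.32, 3.05 and 3.30. The class from 1000 bp, with the widest gap between these medians, had quartiles of 2.11 and 2.83 on chromosome 10, which span the median of the others. Inside and outside the densest 500 kb of chromosome 10, the class medians were 1.87 inside and 1.82 outside, 2.64 and 2.38, 3.23 and 2.99, and 3.45 and 3.27, so peaks inside were somewhat higher in each class. Only 4 peaks inside and 10 outside make up the longest class.

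**Figure D5:**
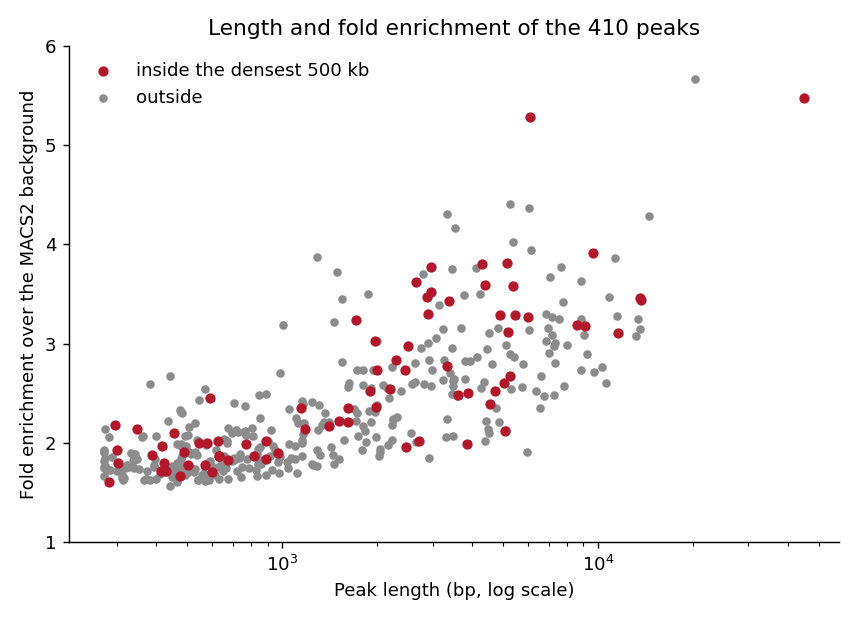
Fold enrichment over the MACS2 background against peak length in bp (log axis) for the 410 peaks of chromosome 10, inside (red, 76) and outside (grey, 334) its densest 500 kb. Both sets rise with length and overlap, and the 2 highest points are the first peak of the chromosome (5.66) and the longest peak (5.47).

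Gaps between neighboring peaks were short on chromosome 10. Their median was 1603 bp (quartiles 622 and 9768 bp), the lowest of 20 chromosomes (median of the others 2611 bp, SD 464), and the upper quartile was also the lowest. The share of gaps under 1000 bp, 36.9%, was 4th of 20. Inside the densest 500 kb the median gap was 1172 bp, 10th of 20 and almost the same as the median of 1171 bp over the other chromosomes. Outside it the median was 1869 bp, the lowest of 20 (median of the others 3587 bp). The short gaps of chromosome 10 relative to the others were thus found outside the densest stretch.

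Long gaps were about as frequent as elsewhere. Chromosome 10 had 48 gaps of at least 50 kb, or 6.03 per Mb, 5th of 20, and they took up 62.5% of the chromosome, against a median of 63.7% on the other 19 (SD 8.90). Chromosomes 15 and 17, next in coverage, had 45.6% and 45.5% in such gaps, the lowest shares of all. In the sequence left after these gaps were taken out, peaks covered 35.3% on chromosome 10, the highest of 20 (median of the others 27.98%, SD 4.08). They covered 23.7% on chromosome 15 and 22.1% on chromosome 17, the lowest of all. Chromosomes 1 and 11, each with 34.7%, came close to chromosome 10 by this measure, which was chosen after the values were seen. The measure divides the coverage that chose chromosome 10 by the share of sequence outside long gaps, so the choice itself favours a high rank. Chromosome 10 thus had its coverage with a share of long gaps near the median. Chromosomes 15 and 17 had theirs with the lowest shares and with more peaks per Mb (64.1 and 56.8 against 51.5).

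The 5 longest gaps lay on both sides of the domain. They were 278920 bp from 7278631 to 7557550, 250589 bp from 1218938 to 1469526, 244274 bp from 7028593 to 7272866, 231192 bp from 5286842 to 5518033 and 219188 bp from 7737420 to 7956607. Of these, 3 lay in the last Mb, where 13 peaks remained. The longest was below the median of 343968 bp for the longest gap of the other chromosomes.

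Joining peaks with no more than 1000 bp between them into chains left 259 on chromosome 10, of which 89 held more than 1 peak. Those of at least 20 kb numbered 6, as many as on chromosome 6 and more than on the others (median 3). After the single longest peak, the longest were 33718 bp of 7 peaks from 2917302 to 2951019 and 30372 bp of 6 peaks from 2970062 to 3000433, both at the left edge of the domain. The next was 27258 bp of 5 peaks from 3968360 to 3995617 in the adjoining dense stretch. In the chain of 7 peaks, peaks made up 87.8% of the length. The chain of 6 peaks contains the peak of 13428 bp named above.

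The chromosome ends differed. The first 50 kb were 47.9% covered, 3rd of 20 (median of the others 18.3%, SD 20.7), by 3 peaks, of which the 20359-bp peak made up most. The second 50 kb had none. The last 50 kb up to the last peak were 1.62% covered, the lowest of 20 (median of the others 37.9%, SD 21.96). The last peak, from 7958012 to 7958504, was 493 bp long with a fold enrichment of 2.07, and 315 bp of the peak before it completed that end. The assembly may run on beyond the last peak, so the true last 50 kb of the chromosome may be other sequence.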

How the data were processed

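H3K9me2 was measured by ChIP-seq in 1 library of line 9509. Per the methods, the authors used Trimmomatic for trimming and bowtie1 for mapping, with up to 2 mismatches and uniquely placed reads only. SAMtools, Picard (for duplicates) and bedtools followed, and MACS2 called the broad peaks. The tool versions behind the peak list, the build name and any use of the input as background: not given in the sources used here. Fold enrichment as deposited is a ratio of pileup to background. The deposited −log10 p was not used, the −log10 q (lowest 1.03) served to filter peaks, and the deposited score, 10 times the −log10 q as a whole number, was not used. Positions were converted to count from 1. Reads with several places in the genome were discarded, so coverage over near-identical repeats can be too low, and this was not tested.

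Chromosome 10 was every peak whose sequence name ends in 10. Chromosome length was the end of the last peak. Windows were 50 kb, with the last, incomplete one left out, and at chromosome ends the running mean used fewer windows. Peaks and gaps were placed in a stretch by their midpoint. Only descriptive values were computed, in Python 3.11.15 with NumPy 2.4.6, pandas 2.3.3 and Matplotlib 3.10.9, after the code was tested on a made-up chromosome with known values. The chromosome, the measures, the alternatives and the rule for named regions (10 longest peaks, 5 highest fold enrichments, first and last peak, 5 longest gaps, windows at least 50% covered, windows at the domain edges, the 2 densest stretches) were chosen with earlier results of these data known. Other regions were named after their values were seen.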

Additional observations from a re-analysis of the deposited data

How the results depend on the processing

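Of 73 values recomputed under an alternative, 49 stayed within 1 SD over the 20 chromosomes (ranks: identical) and 24 did not. The number that changed sign was 0, but only the differences between inside and outside the densest stretch could have done so. Chromosome 10 stayed first in percent covered in each list and length tried, where the lowest values were 10.1% (peaks with q under 1e-05) and 11.7% (peaks of at least 2-fold enrichment). With q under 1e-05, the densest 500 kb was 43.6% covered and the sequence outside it 7.86%. Outside the densest 500 kb, chromosome 10 ranked 1 instead of 2 with q under 0.01, q under 1e-05, at least 2-fold, at least 1000 bp, without the longest peaks, with 600-kb stretches and with 25-kb windows, as chromosome 15 was nearly equal. The domain measured 350 kb with a running mean over 3 windows, 450 kb with 25-kb windows averaged over 9 at a time, with q under 1e-05 or with at least 1000 bp, and 500 kb with q under 0.01 or at least 2-fold, so its length depends on the smoothing and on weak peaks. It was longer, but within 1 SD, with a running mean over 9 windows (700 kb) and with joined peaks (750 kb). The excess in median length inside the densest stretch, 876 bp, was 332 bp with at least 2-fold enrichment, 1638 bp with joined peaks and 1456 bp with 400-kb stretches. The difference in median gap, −697 bp, was −6654 bp with q under 1e-05, −2619 bp with at least 2-fold, −3491 bp with at least 1000 bp and −5373 bp with joined peaks, lists that hold fewer peaks by construction. With 1 library, no replicate can be left out.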
